A study of Mus musculus with 12 samples.

Results

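The replication-dependent histone genes of the mouse, which lie in clusters on chromosomes 13, 3 and 11 with 1 gene apart on chromosome 6, were followed in NIH-3T3 cells, a long-established fibroblast line that grew out of mouse embryos. The genes were chosen by name, as every protein-coding gene of the GENCODE M21 annotation whose symbol begins with Hist1h, Hist2h, Hist3h or Hist4h. This gave 67 genes of the 54392 in the table, with 6 for the linker histone H1, 18 each for the core histones H2A and H2B, 12 for H3 and 13 for H4. Histone pseudogenes with such symbols, 3 in number, were left out. The libraries came from 3 lines made with a guide RNA against Crls1, labelled Crls1KO1, Crls1KO2 and Crls1KO3 (KO1, KO2 and KO3), and from cells labelled Crls1WT (WT), with 3 libraries a group. Crls1 encodes cardiolipin synthase, which makes the mitochondrial phospholipid cardiolipin.

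All 4 groups grew in 1 medium with glucose, glutamine, pyruvate and uridine, and carried no other labelled treatment. Each KO line grew from 1 cell, transfected with a plasmid for Cas9 and the guide and sorted on GFP fluorescence, so a difference between a line and WT may also be a property of that 1 clone. The labels do not say whether WT cells were sorted, or whether the libraries of a group came from separate cultures. The p-values thus measure only the spread between these libraries, which may be technical.

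Replication-dependent histone genes are switched on as DNA synthesis begins and supply the histones that package the new DNA. Their mRNAs end in a stem-loop rather than a poly(A) tail, and the stem-loop binding protein SLBP holds this hairpin during processing, translation and decay. Some of these genes also give longer transcripts that run past the stem-loop to a poly(A) site, known in cells that have left the cell cycle or differentiated. Most members of a second family, the replication-independent histones, are made throughout the cell cycle from ordinary polyadenylated mRNAs.

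The stem-loop is the feature that sets these mRNAs apart, and it is shown for genes on which the results turn. Letters are DNA, 5′ to 3′ in transcript sense, read from GENCODE M21 transcripts, with the 16 bases of the stem-loop in capitals.
Hist1h1c: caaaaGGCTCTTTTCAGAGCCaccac
Hist1h1e: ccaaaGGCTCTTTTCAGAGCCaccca
Hist3h2a: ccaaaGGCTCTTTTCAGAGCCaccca
Hist1h3c: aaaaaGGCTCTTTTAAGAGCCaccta
Hist2h4: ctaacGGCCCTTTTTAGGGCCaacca
Hist4h4: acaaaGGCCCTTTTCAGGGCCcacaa
Hist1h4n: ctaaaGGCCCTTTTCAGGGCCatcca
Of the 67 genes, 46 had a stem-loop in an annotated transcript, in 8 different sequences. The form of Hist1h1c, Hist1h1e and Hist3h2a stood in 26 genes. The form of Hist4h4 and Hist1h4n stood in 7 genes, all of them H4 genes. The form of Hist1h3c was found in 6 genes and that of Hist2h4 in 2. Across all annotated transcripts, 111 of 141767 (0.0783%) held 1 of the forms searched. The annotated transcripts of 24 of these genes were extended, and those of the other 22 ended near the stem-loop. In the extended models a transcript ran more than 100 bases past the stem-loop. The exception is Hist1h2bp, extended through a transcript without a stem-loop and with a 3′ UTR of 150 bases. Of the 21 genes without a stem-loop in their models, 4 had a 3′ UTR of more than 100 bases, namely Hist1h2bc, Hist2h2be, Hist1h2bq and Hist1h2br. The other 17 had neither, and 13 of them have no annotated 3′ UTR. The 24 and the 4 together are the 28 genes with extended models.

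Depth was 32929242 to 42211807 reads per library. Reads on the 67 genes numbered 408 to 855 per library, so nearly all values below rest on few reads. Crls1, the targeted gene, averaged 210.4 ± 2.67 in KO1, 349 ± 21.1 in KO2, 381 ± 23.9 in KO3 and 815 ± 68.4 in WT normalized counts (SD, n = 3 each), and each KO library lay below each WT library. Of 10 fibroblast markers, 9 were detected, and their sum, mostly Col1a1 and Col1a2, was 458553 to 559631 in every library. Single markers differed between groups in both directions. Col3a1 was 132.5 to 156.4 in WT, 6653 to 9159 in KO1, 772 to 1013 in KO2 and 3357 to 3847 in KO3. Pdgfra was 6694 to 8477 in WT and 25729 to 27081 in KO2. Pdgfrb was 5183 to 5539 in WT and 3572 to 4658 in the KO libraries. Markers of other cell types were scarce, with sums that varied between groups. The 5 endothelial markers summed to 269.7 to 330.3 in KO1, 133 to 208 in KO2, 120.2 to 177 in KO3 and 78.8 to 109 in WT. The 5 epithelial markers summed to 344 to 371 in KO1, 186 to 208 in KO2, 305 to 330 in KO3 and 96.4 to 107 in WT. Of these, Cdh1 was 13.5 to 20.0 in WT and 171 to 369 in the KO libraries. Krt8 was 76.4 to 93.2 in WT and 1.97 to 12.5 in the KO libraries. The 5 leukocyte markers summed to 53.1 to 79.2, 13.4 to 17.7, 5.33 to 9.65 and 40.4 to 51.7 in KO1, KO2, KO3 and WT. No marker of these other types was at 0 in every library, and their part in the results was not tested. In bulk RNA, fewer cells of a type and less RNA per cell cannot be told apart.

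Per length of transcript, few reads lay on the replication-dependent genes, which held 408 to 855 of 32929242 to 42211807 reads per library. Values are normalized counts, which are reads divided by a library size factor, here divided by kilobases of annotated transcript and averaged over 12 libraries. Hist2h2aa1 had the highest level at 71.9 per kb, followed by Hist1h1c at 69.4 and Hist1h2bc at 59.0. No H3 gene passed 10.1 per kb and no H4 gene 22.5. Among replication-independent histones on the same scale, H2afz stood at 12370.4 per kb, H3f3b at 10477 and H1f0 at 7334. Per the labels' protocols the libraries were of total RNA primed with random hexamers after ribosomal RNA depletion. By this design, mRNAs without a poly(A) tail were not removed. Why so few reads lay on the 67 genes was not tested. The values above thus compare reads, and need not show how much of these mRNAs the cells held. The 28 genes with extended models held 76.4% of the reads on the 67 genes, the 22 that end near the stem-loop 19.5%, and the 17 with neither a stem-loop nor a long 3′ UTR 4.11%.

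**Figure D1:**
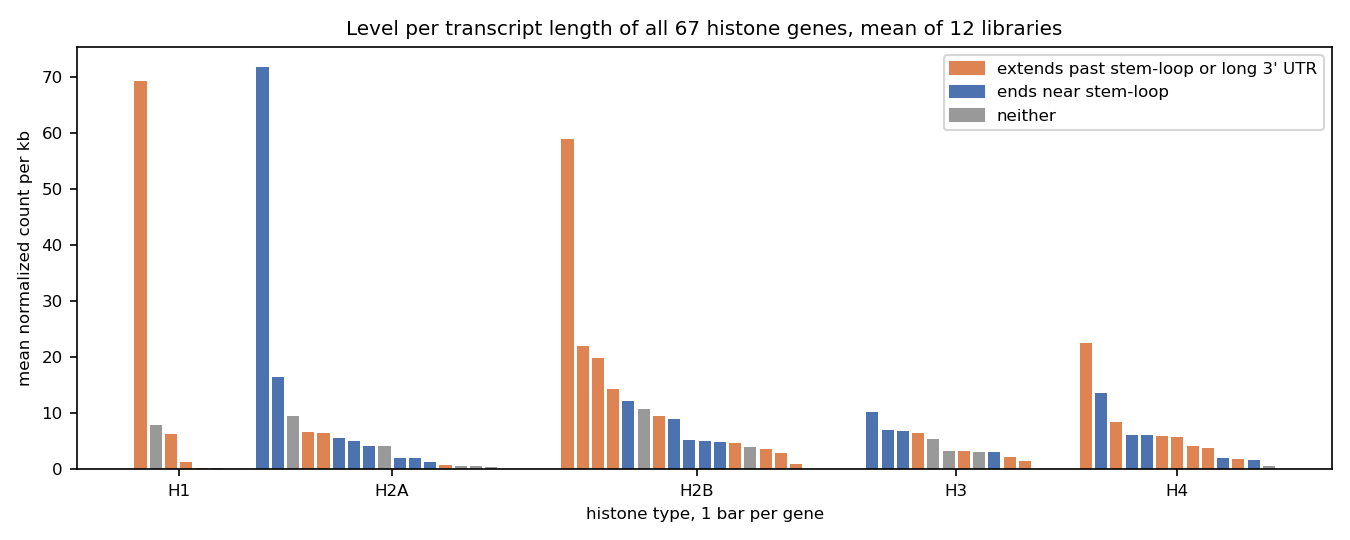
Mean normalized count per kilobase of annotated transcript (y axis) for each of the 67 genes (1 bar each), sorted within the 5 histone types and coloured by where the annotated transcript ends. The 3 tall bars, between 59.0 and 71.9 per kb, are Hist1h1c, Hist2h2aa1 and Hist1h2bc, while no H3 gene passed 10.1.

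A gene was tested where 3 or more libraries held 10 or more normalized counts of it, which left 17 of the 67 genes in and 50 out. Fold changes are differences of log2(normalized count + 1), which understates the change of weak genes, fitted by limma over all 15073 genes that passed. Genes are called where the Benjamini-Hochberg adjusted p over those genes is under 0.05. A gene scarce in 1 group entered the test only through the others, so the 17 are not a sample of the 67. In KO1 against WT, 1 of the 17 genes was called higher and 5 lower, where 26.9% and 25.4% of all genes tested were called. In KO2 against WT, 2 were higher and 4 lower, against 29.9% and 30.5% of all genes. In KO3 against WT, 3 were higher and 4 lower, against 26.8% and 27.3% of all genes. Hist1h1e alone was called in all 3 lines by this fit, and no gene was called in opposite directions in different lines. The 3 comparisons share the WT libraries, so their calls are not independent. Leaving out single libraries moved some counts. It also weakens the test, so a call lost in this way need not mean a smaller fold change. The number lower in KO1 was 2 without WT replicate 1 and 3 without KO1 replicate 1, KO1 replicate 3 or WT replicate 3. The number higher in KO2 was 5 without KO2 replicate 3, and the number higher in KO3 was 1 without KO3 replicate 1 or WT replicate 1.

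**Figure D2:**
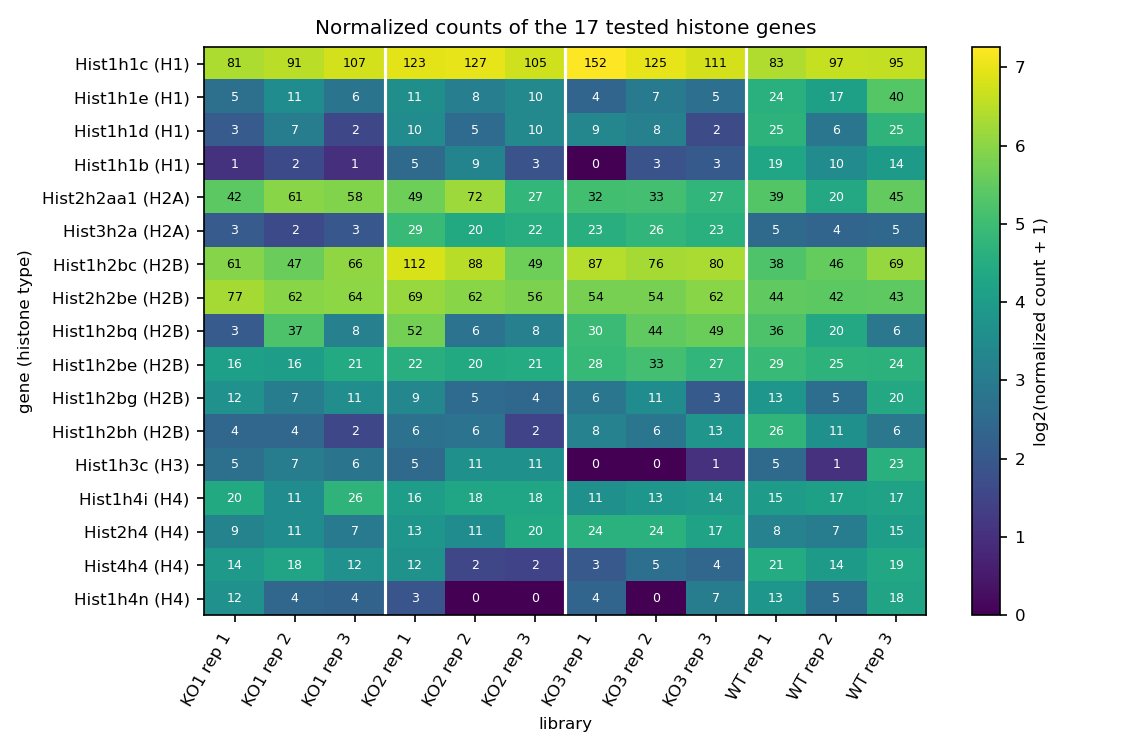
Normalized counts of the 17 tested genes (rows, with histone type) in the 12 libraries (columns, 3 replicates a group), printed in each cell and coloured by log2(normalized count + 1). Hist3h2a stands at 20.1 to 28.9 in KO2 and KO3 and at 2.11 to 4.70 in KO1 and WT, and Hist1h3c stands at 0 to 1.07 in KO3.

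On these genes WT replicate 2 differed from the remaining WT libraries. It was the lowest WT library for 37 of the 67 genes and for 11 of the 17 tested, against 8 of 67 for replicate 1 and 3 of 67 for replicate 3. Summed over the 67 genes, normalized counts were 451, 479 and 472 in KO1, 717, 574 and 436 in KO2, 537, 526 and 557 in KO3 and 613, 422 and 772 in WT. Replicate 2 of WT lay below all the KO libraries, and replicate 3 of WT above them. Short RNAs made without a poly(A) tail, a list of 11 drawn up after their values were seen, moved with this split. They summed to 4198 in WT replicate 1, 576 in replicate 2 and 3331 in replicate 3, while the KO libraries held 131 to 449.7. Their part in the histone results was not tested. Each call of a histone gene of the 17 against WT is therefore also given with WT replicate 2 as the lone WT library. That library is assumed to vary like the other groups, and the alternative was chosen after seeing the data. The lists of other genes below are given without it. With 1 WT library the SE was wider, at 0.227 against 0.155 for Hist2h2be in KO2. A call lost there need not mean a smaller fold change. In that comparison 0, 0 and 1 of the 17 genes were lower and 2, 2 and 2 higher in KO1, KO2 and KO3 by limma. Of all 15073 genes, 20.2%, 25.9% and 22.4% were lower and 22.2%, 25.7% and 22.9% higher there.

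H1 binds the linker DNA between nucleosomes and compacts chromatin. Positions here and below are on GRCm38. Of its 6 genes 4 were tested, and 3 of those fell in at least 1 KO line while the most abundant rose in KO3. Hist1h1e (ENSMUSG00000051627.3, chr13:23620629-23622558, minus strand), a somatic H1 subtype, had normalized counts of 5.35, 10.6 and 5.90 in KO1, 11.2, 7.67 and 9.67 in KO2, 4.15, 7.02 and 5.33 in KO3 and 23.5, 16.6 and 39.7 in WT. Every KO library lay below every WT library. The log2 fold change over WT was -1.70 ± 0.37 (SE, adjusted p = 0.00217) in KO1, -1.32 ± 0.37 (SE, adjusted p = 0.00874) in KO2 and -2.02 ± 0.37 (SE, adjusted p = 5.86e-04) in KO3 by limma. Against WT replicate 2 alone, it was -1.14 in KO1, -0.76 in KO2 and -1.46 in KO3, with limma adjusted p of 0.0852, 0.222 and 0.0324, so that the KO3 call alone stood. The Hist1h1e model overlaps that of Hist1h2be on the same strand, so reads could be split between them.

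Hist1h1b (ENSMUSG00000058773.2, chr13:21779883-21780625, minus strand), another somatic H1 subtype, had 1.07, 2.11 and 0.984 in KO1, 4.66, 8.62 and 2.64 in KO2, 0, 2.63 and 3.20 in KO3 and 18.8, 10.4 and 14.5 in WT. Again all KO libraries lay below all WT libraries. Only WT libraries reached 10 normalized counts of Hist1h1b, so it entered the test through WT alone. Its separation and falls are thus partly set by that filter. Over WT, the log2 fold change was -2.70 ± 0.57 (SE, adjusted p = 0.00179) in KO1, -1.38 ± 0.57 (SE, adjusted p = 0.0552) in KO2 and -2.61 ± 0.57 (SE, adjusted p = 0.00204) in KO3 by limma, past the threshold in KO1 and KO3. Set against WT replicate 2 alone the values were -2.28 and -2.20, with a wider SE of 0.87, and neither call held. Its annotated transcript holds no stem-loop.

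Hist1h1d (ENSMUSG00000052565.7, chr13:23553262-23560686, plus strand), also a somatic H1 subtype, had 3.21, 7.39 and 1.97 in KO1, 10.3, 4.79 and 9.67 in KO2, 9.33, 7.90 and 2.13 in KO3 and 24.7, 6.21 and 25.3 in WT. WT replicates 1 and 3 stood above all KO libraries, while WT replicate 2 lay among them. By limma, the log2 fold change over WT was -1.85 ± 0.62 (SE, adjusted p = 0.0256) in KO1, -0.94 ± 0.62 (SE, adjusted p = 0.214) in KO2 and -1.36 ± 0.62 (SE, adjusted p = 0.0841) in KO3, past the threshold in KO1. That call was lost without KO1 replicate 1, KO1 replicate 3, WT replicate 1 or WT replicate 3, at -1.76, -1.51, -1.55 and -1.53 in that order, with limma adjusted p of 0.0683, 0.0964, 0.0809 and 0.0894. With WT replicate 2 alone the log2 fold changes were -0.61, 0.30 and -0.13 in KO1, KO2 and KO3.

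Hist1h1c (ENSMUSG00000036181.2, chr13:23738808-23740367, plus strand), the H1 gene that held 79.7% of all H1 reads, was called in the other direction in KO3. Its values were 81.3, 90.8 and 107 in KO1, 123, 127 and 105 in KO2, 152, 125 and 111 in KO3 and 83.5, 97.3 and 94.8 in WT. All KO2 and KO3 libraries lay above all WT libraries, and KO1 overlapped WT. On the log2 scale, the fold change over WT was 0.01 ± 0.16 (SE, adjusted p = 0.954) in KO1, 0.36 ± 0.16 (SE, adjusted p = 0.0642) in KO2 and 0.48 ± 0.16 (SE, adjusted p = 0.0214) in KO3 by limma, a rise past the threshold in KO3. That call was lost without KO3 replicate 1 or WT replicate 1, at 0.36 and 0.42 with limma adjusted p of 0.0970 and 0.0624, and with WT replicate 2 alone at 0.40 with an adjusted p of 0.189. Hist1h1a and the testis-specific Hist1h1t were not tested and had at most 2 reads in any library.

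H1 promoters share a motif called the H1 box, AAACACA, and a CCAAT box, and the 250 bases upstream of the RefSeq start (GRCm38.p6) are shown for the H1 genes that differed in direction, Hist1h1c (chr13:23738557-23738806, plus strand) and Hist1h1e (chr13:23622559-23622808, minus strand). Capitals mark the H1 box, the CCAAT box and the TATA box (searched as TATAAA) on either strand.
Hist1h1c: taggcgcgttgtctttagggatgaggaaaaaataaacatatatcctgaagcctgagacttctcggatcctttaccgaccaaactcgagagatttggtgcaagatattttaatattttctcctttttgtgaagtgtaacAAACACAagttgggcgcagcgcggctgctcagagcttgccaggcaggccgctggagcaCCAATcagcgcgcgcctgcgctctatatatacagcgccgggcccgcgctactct
Hist1h1e: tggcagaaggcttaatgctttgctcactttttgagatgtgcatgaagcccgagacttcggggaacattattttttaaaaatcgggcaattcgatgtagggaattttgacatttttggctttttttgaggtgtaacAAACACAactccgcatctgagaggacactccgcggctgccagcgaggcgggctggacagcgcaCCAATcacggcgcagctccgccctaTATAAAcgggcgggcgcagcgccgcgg
Both hold the H1 box and CCAAT, and TATAAA is marked in Hist1h1e alone. RefSeq promoters of 300 bases, 250 before and 50 after the start, matched 62 of the 67 genes, with 63 promoters. AAACACA stood in 5 of 6 H1 promoters and in 7.18% of all 32851 promoters of that length. CCAAT stood in all 6 H1, 18 H2A, 17 H2B and 10 H3 promoters, in 3 of 12 H4 promoters, and in 37.4% of all. TATAAA stood in 55.6% of the histone promoters and in 13.6% of all. The octamer ATTTGCAT, known from H2B promoters, stood in 7 of 17 H2B promoters, 7 of 18 H2A promoters and 1.74% of all. A match describes these letters only. Each motif was searched on both strands by itself, so matches of different motifs may overlap.

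H2A pairs with H2B in the nucleosome, and 2 of its 18 genes were tested. Hist3h2a (ENSMUSG00000078851.4, chr11:58954685-58956830, plus strand), from the small cluster on chromosome 11, had 3.21, 2.11 and 2.95 in KO1, 28.9, 20.1 and 22.0 in KO2, 22.8, 26.3 and 23.4 in KO3 and 4.70, 4.14 and 4.52 in WT. The KO2 and KO3 libraries lay far above both KO1 and WT. Only KO2 and KO3 libraries reached 10 normalized counts of Hist3h2a, so it entered the test through those lines alone. Its separation and rises are thus partly set by that filter. Its log2 fold change over WT was -0.55 ± 0.27 (SE, adjusted p = 0.107) in KO1, 2.16 ± 0.27 (SE, adjusted p = 1.95e-05) in KO2 and 2.21 ± 0.27 (SE, adjusted p = 1.97e-05) in KO3 by limma. Between lines it was 2.71 ± 0.27 (SE, adjusted p = 6.54e-06) in KO2 over KO1, 2.75 ± 0.27 (SE, adjusted p = 5.69e-06) in KO3 over KO1 and 0.04 ± 0.27 (SE, adjusted p = 0.907) in KO3 over KO2. The 4 calls held under every alternative in which the gene was tested, and with WT replicate 2 alone the values were -0.46, 2.25 and 2.29 in KO1, KO2 and KO3. Its model overlaps Trim17 on the same strand, which averaged 4.11 in KO1, 9.24 in KO2, 7.64 in KO3 and 2.93 in WT.

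Hist2h2aa1 (ENSMUSG00000064220.6, chr3:96245497-96246082, plus strand), the H2A gene with the most reads, had 41.7, 61.2 and 58.0 in KO1, 49.4, 71.9 and 27.3 in KO2, 32.1, 33.3 and 26.6 in KO3 and 38.8, 19.7 and 45.2 in WT. The groups overlapped, apart from KO3 against KO1. The log2 fold change over WT was 0.68 ± 0.36 (SE, adjusted p = 0.133) in KO1, 0.48 ± 0.36 (SE, adjusted p = 0.267) in KO2 and -0.09 ± 0.36 (SE, adjusted p = 0.851) in KO3 by limma, with no call, and with WT replicate 2 alone the KO1 value was 1.38 with an adjusted p of 0.0321. Every 31-base stretch of its near-copy Hist2h2aa2 also occurs in it, and Hist2h2aa2 was listed at 0 save for 55.0 in KO2 replicate 1 and 49.0 in KO3 replicate 3. Summed, the pair gave 41.7, 61.2 and 58.0 in KO1, 104, 71.9 and 27.3 in KO2, 32.1, 33.3 and 75.6 in KO3 and 38.8, 19.7 and 45.2 in WT. An antisense gene and a same-strand transcript also overlap Hist2h2aa1, and whether the counting used strand is not given. The other 16 H2A genes averaged 0 to 8.67 normalized counts over all libraries and were not tested.

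H2B was the type with the most reads, 40.2% of those on the 67 genes, and 6 of its 18 genes were tested. Hist2h2be (ENSMUSG00000068854.7, chr3:96221119-96223738, plus strand), known for its expression in mouse olfactory neurons, had 77.1, 62.3 and 63.9 in KO1, 69.0, 62.3 and 56.3 in KO2, 53.9, 53.5 and 61.8 in KO3 and 43.5, 42.5 and 43.4 in WT. All KO libraries lay above all WT libraries, which spanned 42.5 to 43.5. Over WT, the log2 fold change was 0.63 ± 0.16 (SE, adjusted p = 0.00443) in KO1, 0.52 ± 0.16 (SE, adjusted p = 0.0115) in KO2 and 0.38 ± 0.16 (SE, adjusted p = 0.0575) in KO3 by limma, a rise past the threshold in KO1 and KO2. Against WT replicate 2 alone it was 0.66, 0.54 and 0.40, with limma adjusted p of 0.0408, 0.0696 and 0.183, and under quantile normalization no call stood.

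Hist1h2bc (ENSMUSG00000018102.5, chr13:23684199-23692908, plus strand), the H2B gene with the most reads, had 61.0, 47.5 and 65.9 in KO1, 112, 88.2 and 49.2 in KO2, 87.1, 76.3 and 79.9 in KO3 and 37.6, 45.6 and 68.6 in WT. The KO3 libraries lay above all WT libraries, while KO1 and KO2 overlapped WT. By limma, the log2 fold change over WT was 0.23 ± 0.29 (SE, adjusted p = 0.541) in KO1, 0.67 ± 0.29 (SE, adjusted p = 0.0632) in KO2 and 0.71 ± 0.29 (SE, adjusted p = 0.0554) in KO3, with no call. Hist1h2bq had 3.21, 36.9 and 7.87 in KO1, 52.2, 5.75 and 7.91 in KO2, 30.1, 43.9 and 49.0 in KO3 and 36.5, 19.7 and 6.32 in WT, and all groups overlapped WT, with no call. It shares an identical transcript with Hist1h2br, and the sum of the pair was 3.21, 36.9 and 7.87 in KO1, 55.0, 5.75 and 11.4 in KO2, 50.8, 43.9 and 49.0 in KO3 and 45.9, 19.7 and 13.5 in WT.

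Fewer reads lay on Hist1h2be (ENSMUSG00000047246.7, chr13:23583670-23621124, minus strand), with 16.1, 15.8 and 20.7 in KO1, 22.4, 20.1 and 21.1 in KO2, 28.0, 33.3 and 26.6 in KO3 and 29.4, 24.8 and 24.4 in WT. KO1 and KO2 libraries lay below all WT libraries, and KO3 overlapped WT. On the log2 scale, the fold change over WT was -0.56 ± 0.21 (SE, adjusted p = 0.0376) in KO1, -0.29 ± 0.21 (SE, adjusted p = 0.244) in KO2 and 0.15 ± 0.21 (SE, adjusted p = 0.553) in KO3 by limma, a fall past the threshold in KO1. That call was lost without KO1 replicates 1 or 2 or WT replicates 1, 2 or 3. The values were then -0.51, -0.50, -0.48, -0.60 and -0.61 in that order, with limma adjusted p of 0.0544 to 0.115. The call was not made by edgeR or DESeq2 on recovered reads. Against WT replicate 2 alone the KO1 value was -0.49.

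Hist1h2bh (ENSMUSG00000114456.1, chr13:23541714-23543392, minus strand) had 4.28, 4.22 and 1.97 in KO1, 5.60, 5.75 and 1.76 in KO2, 8.29, 6.14 and 12.8 in KO3 and 25.9, 11.4 and 6.32 in WT. KO1 and KO2 libraries lay below all WT libraries, and KO3 overlapped WT. Its log2 fold change over WT was -1.63 ± 0.53 (SE, adjusted p = 0.0217) in KO1, -1.44 ± 0.53 (SE, adjusted p = 0.0337) in KO2 and -0.47 ± 0.53 (SE, adjusted p = 0.481) in KO3 by limma, a fall past the threshold in KO1 and KO2. The KO1 call was lost without KO1 replicate 3 or WT replicate 1, at -1.36 and -1.13 with limma adjusted p of 0.0821 and 0.0931. The KO2 call was lost without KO2 replicate 3, WT replicate 1 or WT replicate 2, at -1.01, -0.94 and -1.50 with limma adjusted p of 0.135, 0.147 and 0.0588. Set against WT replicate 2 alone the values were -1.51 in KO1 and -1.32 in KO2, with limma adjusted p of 0.0901 and 0.120. Hist1h2bg had 3.20 to 19.9 over all libraries and no call, and the 12 H2B genes not tested averaged 0 to 5.59.

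H3 and H4 form the tetramer at the core of the nucleosome. Among 12 H3 genes Hist1h3c (ENSMUSG00000069310.4, chr13:23744973-23745602, minus strand) was the 1 tested, with 5.35, 7.39 and 5.90 in KO1, 4.66, 11.5 and 11.4 in KO2, 0, 0 and 1.07 in KO3 and 4.70, 1.04 and 23.5 in WT. KO3 held 1 read in all, below every library of KO1 and KO2, and WT replicate 2 also held 1 read. The read ratio of KO3 was 0.031 over WT (95% exact interval 0.0008 to 0.186), 0.053 over KO1 (0.0013 to 0.335) and 0.036 over KO2 (0.0009 to 0.214), where intervals cover counting error only. The log2 fold change over WT was 0.12 ± 0.74 (SE, adjusted p = 0.904) in KO1, 0.54 ± 0.74 (SE, adjusted p = 0.550) in KO2 and -2.37 ± 0.74 (SE, adjusted p = 0.0170) in KO3 by limma, a fall past the threshold in KO3. That call was lost without KO3 replicate 1, KO3 replicate 2 or WT replicate 3, at -2.19, -2.19 and -1.42 with limma adjusted p of 0.0529, 0.0524 and 0.0668, and with WT replicate 2 alone the value was -0.68 with an adjusted p of 0.443. The WT replicate 2 comparison also called Hist1h3c higher in KO2, at 2.24 with a limma adjusted p of 0.0171. The other 11 H3 genes averaged 0 to 6.60, with Hist2h3c2 the highest at 1.07, 0 and 1.97 in KO1, 8.40, 2.87 and 4.40 in KO2, 5.18, 9.65 and 16.0 in KO3 and 8.23, 5.18 and 16.3 in WT.

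Of the 13 H4 genes 4 were tested. Hist4h4 (ENSMUSG00000096010.2, chr6:136801553-136804415, minus strand), which lies alone on chromosome 6, had 13.9, 17.9 and 11.8 in KO1, 12.1, 1.92 and 1.76 in KO2, 3.11, 5.26 and 4.26 in KO3 and 21.2, 14.5 and 19.0 in WT. KO2 and KO3 libraries lay below all WT libraries and KO1 overlapped WT. Over WT, the log2 fold change was -0.31 ± 0.52 (SE, adjusted p = 0.650) in KO1, -2.01 ± 0.52 (SE, adjusted p = 0.00517) in KO2 and -1.89 ± 0.52 (SE, adjusted p = 0.00850) in KO3 by limma, a fall past the threshold in KO2 and KO3. With WT replicate 2 alone it was -0.01, -1.71 and -1.59, with limma adjusted p of 0.992, 0.0964 and 0.130.

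Hist2h4 (ENSMUSG00000091405.2, chr3:96261682-96263311, minus strand), from the cluster on chromosome 3, had 8.56, 10.6 and 6.89 in KO1, 13.1, 10.5 and 20.2 in KO2, 23.8, 23.7 and 17.0 in KO3 and 8.23, 7.25 and 15.4 in WT. The KO3 libraries lay above all WT and all KO1 libraries. By limma, the log2 fold change over WT was -0.17 ± 0.34 (SE, adjusted p = 0.703) in KO1, 0.49 ± 0.34 (SE, adjusted p = 0.237) in KO2 and 1.05 ± 0.34 (SE, adjusted p = 0.0206) in KO3, a rise past the threshold in KO3. That call was lost without KO3 replicate 1, KO3 replicate 2, WT replicate 1 or WT replicate 2, at 0.97, 0.98, 0.94 and 0.86 with limma adjusted p of 0.0641, 0.0624, 0.0588 and 0.0764. DESeq2 and the authors' deposited table did not make it, while with WT replicate 2 alone it was 1.43 with a limma adjusted p of 0.0218.

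Hist1h4n (ENSMUSG00000069305.3, chr13:21831767-21832196, minus strand) had 11.8, 4.22 and 3.93 in KO1, 2.80, 0 and 0 in KO2, 4.15, 0 and 7.46 in KO3 and 12.9, 5.18 and 18.1 in WT. KO2 held 3 reads in all and lay below all WT libraries, and KO1 and KO3 overlapped WT. The read ratio of KO2 over WT was 0.075 (95% exact interval 0.0148 to 0.237, counting error only). On the log2 scale, the fold change over WT was -0.77 ± 0.82 (SE, adjusted p = 0.455) in KO1, -2.92 ± 0.82 (SE, adjusted p = 0.00830) in KO2 and -1.75 ± 0.82 (SE, adjusted p = 0.0912) in KO3 by limma, a fall past the threshold in KO2. Against WT replicate 2 alone the KO2 value was -1.99 with an adjusted p of 0.192. Its near-copy Hist1h4m shares 91.7% of its 31-base stretches with it, and the pair summed to 11.8, 4.22 and 3.94 in KO1, 2.80, 3.83 and 3.52 in KO2, 4.15, 0.878 and 7.46 in KO3 and 12.9, 5.18 and 18.1 in WT. The pair had 11 reads in KO2 against 36 in WT, a ratio of 0.275 (95% exact interval 0.126 to 0.551, counting error only). With the pair summed before the fit the KO2 call was lost, at a log2 fold change of -1.44 with a limma adjusted p of 0.0571.

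Hist1h4i (ENSMUSG00000060639.5, chr13:22040636-22041362, minus strand), the H4 gene with the most reads, had 20.3, 10.6 and 25.6 in KO1, 15.9, 18.2 and 18.5 in KO2, 11.4, 13.2 and 13.9 in KO3 and 15.3, 16.6 and 17.2 in WT. KO3 lay below all WT libraries, while KO1 and KO2 overlapped WT. Its log2 fold change over WT was 0.11 ± 0.30 (SE, adjusted p = 0.779) in KO1, 0.09 ± 0.30 (SE, adjusted p = 0.809) in KO2 and -0.33 ± 0.30 (SE, adjusted p = 0.370) in KO3 by limma, with no call. The 9 H4 genes not tested averaged 0.15 to 6.79 over all libraries.

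**Figure D3:**
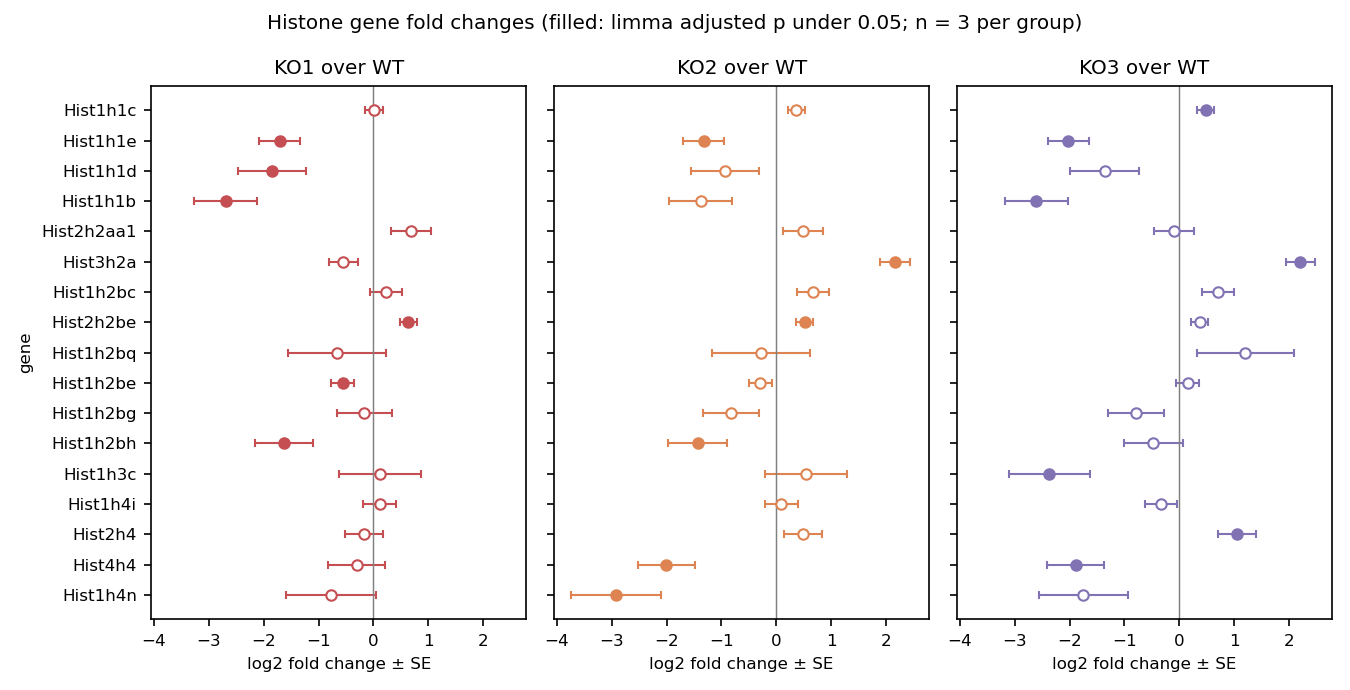
Log2 fold change over WT with its SE (x axis) of the 17 tested genes (y axis) in KO1, KO2 and KO3 (3 libraries a group), with filled points for a limma adjusted p under 0.05. Hist1h1e lies left of 0 with a filled point in all 3 panels, and Hist3h2a lies above 2 in KO2 and KO3 and at -0.55 in KO1.

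Summed by type, the counts of H3 and H4 differed most from WT, and those differences depended on which WT libraries were used. The sums include genes too scarce to test and were not tested. H4 summed to 67.4, 53.8 and 57.1 in KO1, 59.7, 46.0 and 57.1 in KO2, 50.8, 52.6 and 50.1 in KO3 and 114, 58.0 and 151 in WT. WT replicate 2 lay among the KO libraries. The log2 ratio of the means over WT was -0.86, -0.99 and -1.07 in KO1, KO2 and KO3, and over WT replicate 2 alone 0.04, -0.10 and -0.18.

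H3 summed to 25.7, 23.2 and 25.6 in KO1, 43.8, 34.5 and 22.9 in KO2, 11.4, 22.8 and 29.8 in KO3 and 45.9, 30.0 and 102 in WT. Here too WT replicate 2 lay among the KO libraries, while WT replicates 1 and 3 lay above all of them. The log2 ratio over WT was -1.26, -0.81 and -1.47, and over WT replicate 2 alone -0.27, 0.17 and -0.49.

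H1 summed to 92.0, 111 and 118 in KO1, 149, 149 and 127 in KO2, 166, 143 and 121 in KO3 and 151, 131 and 174 in WT. The KO1 libraries lay below all WT libraries, and KO2 and KO3 overlapped WT. The log2 ratio was -0.51, -0.10 and -0.08 in KO1, KO2 and KO3. H2A summed to 64.2, 98.1 and 75.7 in KO1, 169, 116 and 58.0 in KO2, 61.2, 72.8 and 113 in KO3 and 74.1, 39.3 and 104 in WT. The groups overlapped, at log2 ratios of 0.13, 0.66 and 0.18, the first of which was -0.26 under quantile normalization. H2B summed to 201, 193 and 196 in KO1, 296, 229 and 171 in KO2, 248, 235 and 243 in KO3 and 228, 164 and 241 in WT. Each KO line overlapped WT, and the KO3 libraries lay above the KO1 libraries. The log2 ratios were -0.10, 0.14 and 0.20, of which the value for KO2 was -0.04 under quantile normalization.

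**Figure D4:**
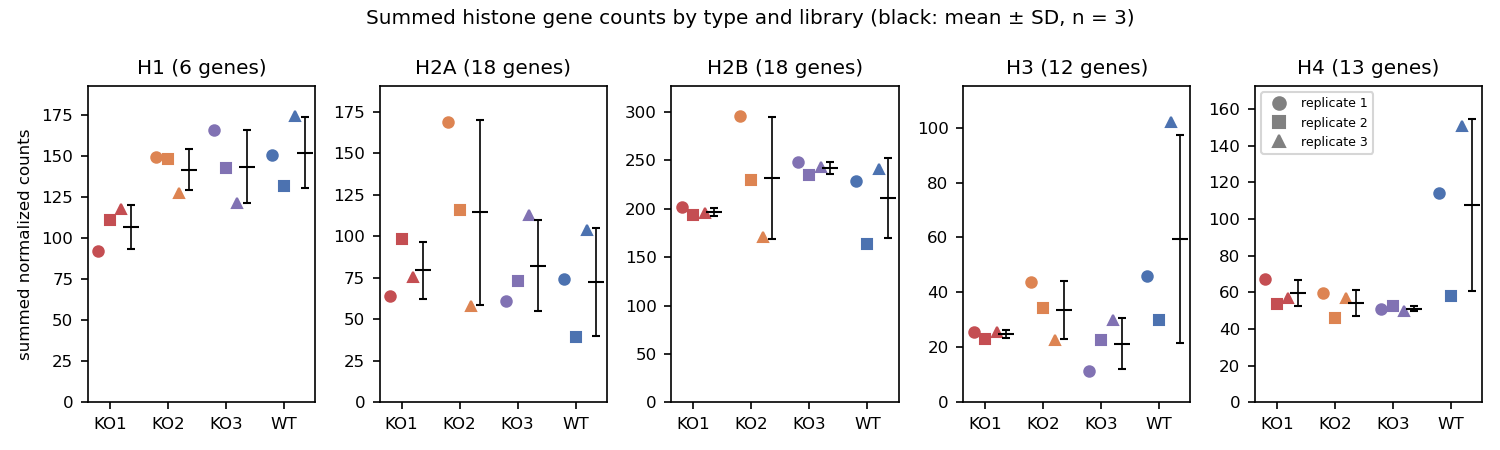
Summed normalized counts (y axis) of the genes of each histone type in every library of KO1, KO2, KO3 and WT, with replicate number by symbol and the mean ± SD of 3 libraries in black. In H3 and H4, WT replicate 2 (30.0 and 58.0) lies among the KO libraries, while WT replicates 1 and 3 lie above them.

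Genes whose annotated transcripts can end at a poly(A) site were compared with the rest. An AATAAA, the usual poly(A) signal, stood in the last 40 bases of a protein-coding transcript of 14 genes. Among them were Hist1h1c, Hist2h2be, Hist3h2a, Hist2h4 and Hist4h4, and the 14 genes held 44.8% of the reads. They summed to 201, 235 and 214 in KO1, 313, 237 and 226 in KO2, 315, 283 and 271 in KO3 and 225, 194 and 223 in WT. All KO2 and KO3 libraries lay above all WT libraries, which spanned 194 to 225, and KO1 overlapped WT. The log2 ratio over WT was 0.02, 0.27 and 0.44 in KO1, KO2 and KO3. Hist1h1c and Hist2h2be, averaging 108.3 and 57.4 over all libraries, held much of this sum, so it does not describe each of the 14 genes. Hist4h4 averaged 18.2 in WT, 5.27 in KO2 and 4.21 in KO3. The other 53 genes include Hist1h2be, whose AATAAA lies in a transcript not annotated as coding. They also include the 13 genes with no annotated 3′ UTR, whose models cannot show the signal. The 53 summed to 249, 244 and 258 in KO1, 405, 337 and 210.1 in KO2, 222, 243 and 287 in KO3 and 388, 229 and 549 in WT. In these the WT libraries spread from 229 to 549, against 210.1 to 405 in the KO libraries, with log2 ratios of -0.64, -0.29 and -0.63. The short RNAs without a poly(A) tail divided the WT libraries in the same order as the 53 genes only in part, since replicate 2 was lowest in both but replicate 1 was highest for the short RNAs and replicate 3 for the 53 genes. Their part in these sums was not tested.

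**Figure D5:**
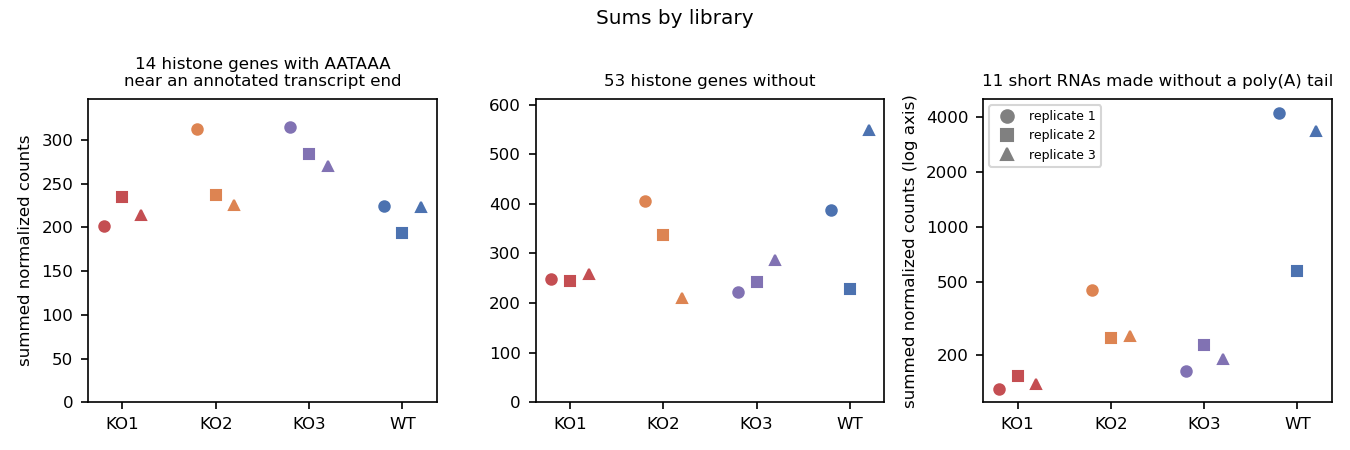
Summed normalized counts (y axis, the right panel on a log scale) in every library. Panels show 14 histone genes with AATAAA near a protein-coding transcript end, the 53 without, and 11 short RNAs made without a poly(A) tail. WT replicate 2 (squares) lies near the other WT libraries at left, at 194 against 223 and 225, and below them in the middle (229) and at right (576).

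The 50 genes not tested held 20.3% of the reads. They summed to 81.3, 80.2 and 69.8 in KO1, 171, 104 and 66.8 in KO2, 60.1, 57.9 and 109 in KO3 and 171, 74.5 and 286 in WT. WT replicates 1 and 3 were among the highest libraries and WT replicate 2 lay among the KO libraries. Of the 50 genes, 5 were listed at 0 in every library, namely Hist1h2ak, Hist1h2ah, Hist1h2bn, Hist1h2ba and Hist2h3c1. A further 8 had at most 3 reads in any library. Hist1h4d had 4.28, 5.28 and 1.97 in KO1, 4.66, 4.79 and 6.15 in KO2, 1.04, 1.75 and 1.07 in KO3 and 20.0, 5.18 and 25.3 in WT, and Hist1h3d had 2.14, 0 and 3.93 in KO1, 0.933, 1.92 and 0.879 in KO2, 3.11, 3.51 and 5.33 in KO3 and 9.41, 6.21 and 11.7 in WT. In the authors' deposited table, which gives an adjusted p for 49 of the 67 genes in each comparison, Hist1h4d was lower in KO1 (adjusted p = 0.0191) and KO3 (6.31e-04), Hist2h3c2 in KO1 (0.00837) and Hist1h3d in KO2 (0.0122). Of the 67 genes, that same deposited table gave 8, 5 and 9 as lower and 1, 2 and 2 as higher in KO1, KO2 and KO3. Of the 19142 genes with an adjusted p in the authors' deposited table, 20.5%, 24.4% and 22.0% were lower and 21.4%, 23.6% and 21.0% higher.

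Many of these genes are near-copies, so the division of reads between them is uncertain. Stretches of 31 bases showed that 39 of the 67 share at least 50% of their sequence with another of them. The pairs that share at least 90% were also summed before the fit. The numbers called higher and lower were then 1 and 5 in KO1, 2 and 3 in KO2, and 3 and 4 in KO3. Of all 15073 genes, 4049 and 3829, 4506 and 4596, and 4036 and 4115 were called in that order. The call lost in KO2 was that of Hist1h4n.

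The lines also differed from each other on these genes. In KO2 against KO1, Hist3h2a was called higher and Hist4h4 lower, where 20.5% and 23.9% of all genes tested were called. In KO3 against KO1, Hist3h2a, Hist2h4, Hist1h2be and Hist1h1c were called higher and Hist1h3c and Hist4h4 lower, where 20.3% and 23.4% of all genes were called. In KO3 against KO2, limma called 0 genes higher, where 26.1% of all genes were called, with 0 at an unadjusted p under 0.05 and 0 by edgeR or DESeq2. Hist1h3c was the 1 gene lower, where 27.0% of all genes were called.

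Regulators of these genes, replication genes and histone chaperones were compared as lists, whose members were chosen with earlier results of these data known. The S phase and DNA replication list holds the helicase, clamp and nucleotide synthesis genes that work while histones are made. Of its 40 genes, all tested, 34, 40 and 32 fell and 0, 0 and 1 rose in KO1, KO2 and KO3, with median log2 fold changes of -0.53, -0.84 and -0.49, against medians over all genes of 0.02, 0.00 and 0.00. Of all 15073 genes, 25.4%, 30.5% and 27.3% fell and 26.9%, 29.9% and 26.8% rose in KO1, KO2 and KO3. Pcna, the sliding clamp of DNA polymerases, had normalized counts of 5098, 5259 and 4925 in KO1, 3968, 4724 and 4752 in KO2, 4861, 5062 and 4649 in KO3 and 9039, 9563 and 9215 in WT. All KO libraries lay below all WT libraries, at log2 fold changes of -0.86, -1.05 and -0.93 in KO1, KO2 and KO3. The log2 fold changes in that order were -1.03, -1.42 and -0.97 for Mcm6, -1.12, -1.08 and -0.96 for Mcm5 and -0.85, -1.35 and -0.87 for Mcm3, all subunits of the replicative helicase. They were -0.53, -0.59 and -0.48 for Rfc3, a subunit of the clamp loader. The largest limma adjusted p among these 5 genes was 7.53e-06.

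Slbp, which encodes the protein that binds the stem-loop, had 3490.1, 3686 and 3681 in KO1, 2847, 3129.7 and 3333 in KO2, 3518, 3577 and 3271 in KO3 and 4524, 4506 and 4691 in WT. All KO libraries lay below all WT libraries. Its log2 fold change was -0.34, -0.56 and -0.41 in KO1, KO2 and KO3, with limma adjusted p of 5.29e-04, 5.80e-06 and 1.14e-04. It belongs to a list of 25 factors for histone gene transcription and mRNA 3′ end formation and decay. Of the 24 tested, 11 fell in each line and 3, 4 and 4 rose in KO1, KO2 and KO3, at medians of -0.16, -0.33 and -0.12. All genes fell in 25.4%, 30.5% and 27.3% of cases and rose in 26.9%, 29.9% and 26.8%. In KO1 those that fell were 6 under quantile normalization. Ccne2, a cyclin of the kinase that starts S phase, changed by -1.35, -1.57 and -1.14 and its partner Cdk2 by -0.19, -0.56 and -0.21. Cstf2, a cleavage factor, changed by -0.43, -0.71 and -0.75, and Srrt, which joins the cap-binding complex, by -0.28, -0.44 and -0.24. Tut4, a uridylyltransferase linked to histone mRNA decay, rose by 0.43, 0.45 and 0.54.

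Histone chaperones carry new histones to DNA. Of 20, all tested, 10, 14 and 7 fell and 1, 1 and 6 rose in KO1, KO2 and KO3, at medians of -0.21, -0.42 and -0.05. The shares of all genes were 25.4%, 30.5% and 27.3% for a fall and 26.9%, 29.9% and 26.8% for a rise, so the counts in KO3, 7 and 6 of 20, lay near them. Hat1, which acetylates new H4, changed by -0.92, -0.78 and -0.51. Chaf1a and Chaf1b, subunits of the factor that deposits histones at replication forks, changed by -0.76, -1.45 and -0.69 and by -0.64, -0.95 and -0.36. Tonsl, which reads new H4 at forks, changed by -0.44, -0.70 and -1.10, and Nasp, a chaperone of soluble H3 and H4, by -0.59, -0.86 and -0.50. Ubn1, a subunit of the replication-independent HIRA complex, rose by 0.38, 0.83 and 0.27. The limma adjusted p of these 6 genes was at most 0.00791.

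Replication-independent histones are the other source of histone mRNA. Of 15, 10 were tested, and 7, 5 and 4 rose and 1, 2 and 1 fell in KO1, KO2 and KO3, at medians of 0.47, 0.41 and 0.43. Among all genes 26.9%, 29.9% and 26.8% rose and 25.4%, 30.5% and 27.3% fell. H1f0, a linker histone known to build up in resting and differentiated cells, had 17101, 17536 and 17829.6 in KO1, 16024, 15445 and 15028 in KO2, 16557, 15306 and 16323 in KO3 and 10975, 11518 and 11217 in WT. All KO libraries lay above all WT libraries, at log2 fold changes of 0.64, 0.46 and 0.51 with a limma adjusted p of at most 3.66e-06. H2afy2, a macroH2A, rose by 0.72, 1.17 and 0.98, and H3f3b, a source of the variant H3.3, by 0.19, 0.23 and 0.45. H3f3a, the other H3.3 gene, had 0.29, 0.36 and 0.22, which did not pass in KO3 (limma adjusted p = 0.0690). H2afx, a variant that marks DNA breaks once phosphorylated, had 0.92, 0.66 and 2.01, which did not pass in KO2 (limma adjusted p = 0.0557). H2afz, the variant H2A.Z, fell by 0.56, 0.94 and 0.48.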

How the data were processed

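RNA of 12 NIH-3T3 libraries, 3 each of KO1, KO2, KO3 and WT, was measured, and the groups were taken from the labels' genotype. The authors deposited a table of normalized signal per gene and tables of log2 fold changes with p-values for each KO line over WT, per the file headers. Cutadapt, Salmon 0.14.1, DESeq2 1.24.0 and GRCm38 (mm10) are named in the submitters' processing notes, with no settings. None of the sources used here says whether counting used strand. The deposited signal is reads divided by a size factor for each library, since 99.983 to 99.994% of values were whole numbers within 0.02 after multiplying by it. Recovered reads came to 32929242 to 42211807 per library. Columns of no sample were 0 in number.

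Gene IDs were matched to GENCODE M21 (54357 of 54392). Genes with at least 10 normalized counts in at least 3 libraries (15073) were fitted in 1 model of 4 groups on log2(normalized count + 1) with limma 3.58.1 (trended, R 4.3.3) and p-values were adjusted by Benjamini-Hochberg over all of them, with a threshold of 0.05. The fit was tested on simulated data with the same dispersion for all genes. That test does not cover genes whose replicates spread more widely, as those of Hist1h3c did in WT. The alternatives were edgeR 4.0.16 and DESeq2 1.42.0 on recovered reads, other pseudocounts, filters and normalizations, 2 groups in the fit, a replicate block, summed near-copies and each library left out. The use of WT replicate 2 alone and of the authors' table was added after seeing the data. Any of the 67 genes could be named, and from each list the up to 6 genes with the smallest of the largest adjusted p over the 3 lines, with Slbp always. A gene so chosen from the S phase list is not reported here. The genes and lists were chosen with earlier results of these data known.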

Additional observations from a re-analysis of the deposited data

Results flagged for a closer look

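The KO lines carry the same labelled change, so genes that differed between lines are listed, each tested by limma as the difference between lines over all 15073 genes. In KO2 against KO1, Hist3h2a differed by 2.71 on the log2 scale (adjusted p = 6.54e-06) and Hist4h4 by -1.70 (adjusted p = 0.0188). In KO3 against KO1, Hist3h2a differed by 2.75 (adjusted p = 5.69e-06), Hist2h4 by 1.22 (0.0119), Hist1h2be by 0.72 (0.0138), Hist1h1c by 0.47 (0.0303), Hist1h3c by -2.49 (0.0165) and Hist4h4 by -1.58 (0.0272). In KO3 against KO2, Hist1h3c differed by -2.91 (adjusted p = 0.00545), a difference that rests on 1 read in KO3 and 30 reads in KO2.

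Some of these calls were lost when 1 library was left out, again by limma. Fewer libraries also weaken the test, so a lost call need not mean a smaller difference. The Hist4h4 call in KO2 against KO1 was lost without KO1 replicate 2, KO2 replicate 2 or KO2 replicate 3, at -1.55, -1.35 and -1.31 with adjusted p of 0.0656, 0.0784 and 0.0760. That in KO3 against KO1 was lost without KO1 replicate 1, KO1 replicate 2, KO3 replicate 1 or KO3 replicate 3, at -1.60, -1.43, -1.42 and -1.60 with adjusted p of 0.0610, 0.0867, 0.0849 and 0.0575. The Hist1h1c call was lost without KO1 replicate 1, KO1 replicate 2, KO3 replicate 1 or KO3 replicate 2, at 0.38, 0.46, 0.35 and 0.49 with adjusted p of 0.115, 0.0771, 0.128 and 0.0598. The Hist1h3c call in KO3 against KO1 was lost without KO1 replicate 2, KO3 replicate 1 or KO3 replicate 2, at -2.38, -2.32 and -2.32 with adjusted p of 0.0514, 0.0530 and 0.0538. The Hist1h2be call was lost without KO3 replicate 2, at 0.62 with an adjusted p of 0.0556. The calls for Hist3h2a, for Hist2h4 and for Hist1h3c in KO3 against KO2 held without any 1 library.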

How the results depend on the processing

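Of 28 called fold changes of single genes, 0 changed direction under any alternative run, and 80 of their recomputed values across all alternatives fell short of the threshold. With WT replicate 2 as the only WT library, 2 genes were higher in KO1 and 0, 0 and 1 lower in KO1, KO2 and KO3. The log2 ratio of summed counts over it in KO1, KO2 and KO3 was 0.15, 0.45 and 0.35 for all 67 genes, -0.30, 0.11 and 0.13 for H1, 1.01, 1.54 and 1.06 for H2A, 0.27, 0.50 and 0.56 for H2B, -0.27, 0.17 and -0.49 for H3, and 0.036, -0.10 and -0.18 for H4. Under quantile normalization 0 genes were higher in KO1 and 1 in KO2 against WT, where 3792 and 4498 of all 15073 genes were. Between lines it gave 6 higher and 0 lower in KO2 against KO1, with 3874 and 3408 of all genes. It gave 7 higher and 0 lower in KO3 against KO1, with 3648 and 3298 of all genes. It gave 1 higher in KO3 against KO2, with 3937 of all genes. The KO1 ratio was then -0.86 for H1 and -0.51 for H2B. Beside the 0 lower in KO2 against KO1, limma without that step gave 1, with 2 at an unadjusted p under 0.05, and edgeR and DESeq2 gave 0, with 2 each at an unadjusted p under 0.05.

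A filter of 50 left 0 genes lower in KO1, KO2 and KO3 against WT, since fewer genes were tested. It left 0 lower in each comparison between lines. It left 1 higher in KO2 against WT, 0 in KO2 against KO1 and 1 in KO3 against KO1. Of all 12421 genes that passed this filter, 3581, 4261 and 3704 were lower in KO1, KO2 and KO3 against WT. Between lines 3210, 2991 and 3681 were lower in KO2 against KO1, KO3 against KO1 and KO3 against KO2. Those higher numbered 4024, 2941 and 2950 in KO2 against WT, KO2 against KO1 and KO3 against KO1. Without a filter 12, 7 and 13 were lower in KO1, KO2 and KO3, where 3830, 4704 and 4260 of all 27134 genes were. That fit tested all of the 67 genes but the 5 without reads. Between lines 2 were higher in KO2 against KO1, with 2925 of all genes. There were 1 and 3 lower in KO3 against KO1 and against KO2, with 3743 and 4045 of all genes. The authors' deposited table had 8 lower in KO1 and 9 in KO3, where 20.5% and 22.0% of all genes with an adjusted p were. Fitting only 2 groups gave 2 higher in KO2 against KO1, with 3601 of all 15073 genes. A pseudocount of 0.5 gave 2 lower in KO2 against KO1, with 3574 of all 15073 genes. One of 5 gave 1 lower in KO3 against KO1, with 3565 of all 15073 genes. Averaging the log2 values of the tested genes in place of summing gave -1.56, -0.82 and -1.38 for H1 in KO1, KO2 and KO3, 1.06 for H2A in KO3, and 0.12 and 0.54 for H3 in KO1 and KO2, and the tested H3 gene alone gave -4.78 in KO3 on 1 read. The cause was not tested in the other cases.

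Leaving out 1 library gave 2 to 5 genes lower in KO1 against WT, with 2 without WT replicate 1. It gave 2 to 5 higher in KO2 against WT, with 5 without KO2 replicate 3, and 1 to 4 higher in KO3 against WT, with 1 without KO3 replicate 1 or WT replicate 1. Between lines it gave 1 to 2 higher and 0 to 2 lower in KO2 against KO1, with 0 lower without KO1 replicate 2, KO2 replicate 2 or KO2 replicate 3. It gave 2 to 4 higher and 0 to 2 lower in KO3 against KO1, with 2 higher without KO3 replicate 2 and 0 lower without KO3 replicate 1. It gave 0 to 1 higher and 1 to 2 lower in KO3 against KO2, with 1 higher without KO2 replicate 1 or KO3 replicate 2. Of all 15073 genes, leaving out 1 library gave 3311 to 3848 lower in KO1 against WT. It gave 4057 to 4595 higher in KO2 and 3614 to 4164 higher in KO3 against WT. In KO2 against KO1 it gave 2569 to 3634 higher and 3051 to 4112 lower. These were 2525 to 3612 and 3027 to 4012 in KO3 against KO1. In KO3 against KO2 they were 3496 to 4419 and 3629 to 4502.

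The labels do not say whether the replicate numbers pair the samples. Correlations of same-numbered libraries ran from -0.22 to 0.12. They cannot settle this, since differently numbered libraries were not compared. With the replicate block, the numbers higher and lower were 1 and 4 in KO1, 2 and 4 in KO2 and 3 and 5 in KO3 against WT. Of all 15073 genes, 3896 and 3625, 4371 and 4491, and 3875 and 3990 were called in that order. Between lines the block gave 1 and 2 in KO2 against KO1, 3 and 2 in KO3 against KO1, and 0 and 1 in KO3 against KO2. Of all genes, 2906 and 3415, 2836 and 3336, and 3790 and 3917 were called there.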
